A study of Homo sapiens with 12 samples.

Results

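The genes described here are the ATF4 program and the cytosolic aminoacyl-tRNA synthetases, 46 of the 62702 genes counted in renal carcinoma cells. They were taken from a list of symbols, matched through their Ensembl identifiers, and every one of the 46 was found. By role they are 11 factors and stress regulators, 8 enzymes of amino acid synthesis, 8 amino acid transporters, 13 synthetases commonly listed as ATF4 targets and 6 other cytosolic synthetases. Of these, 42 had enough counts to be tested, and the 4 others (NUPR1, ASNS, PHGDH and SLC6A9) are given by their counts.

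RNA was measured in 786-O, an established line from a clear cell renal carcinoma, without functional VHL, by BRB-seq, which sequences barcoded 3′ ends of polyadenylated RNA. There were 4 groups of 3 libraries, all exposed to doxycycline for 72 hours: the parental control line (Parental), a HIF2A knockdown (shHIF2A), a knockdown of cJUN, JUNB and JUND together (shJUNs) and a knockdown of YAP and TAZ together (shYAPTAZ). The drug switches on the shRNAs, and the parental cells received it too. Lines with shRNAs had been selected with puromycin, blasticidin or hygromycin according to the number of genes silenced, so a knockdown differs from the parental line in selection as well as in its target, and the 2 cannot be told apart. Cells carrying a control shRNA were not analysed here. The labels call the replicates technical, so each p-value measures the spread between these libraries alone.

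ATF4 is a transcription factor of the basic leucine zipper family whose mRNA is translated more when the initiation factor eIF2 is phosphorylated, as happens when amino acids run short, the endoplasmic reticulum is stressed, or heme is lacking. It binds composite C/EBP-ATF response elements (CAREs) beside genes that import amino acids, make them and load them onto tRNAs, and beside genes that shape the stress response itself. The level of ATF4 mRNA is a separate quantity from its translation, and protein was not measured here. In kidney cancer cells that lack VHL, HIF2A stays active, and the leucine transporter SLC7A5 has been described as one of its targets. Cytosolic synthetases attach each amino acid to its tRNA, and several of them, with the AIMP scaffold proteins, form the multi-synthetase complex.

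The element by which ATF4 binds DNA was looked for in promoters, because it marks out one part of the list. RefSeq promoter windows (GRCh38.p14, 250 bases before to 50 after the start site) existed for 38 of the 46 genes. The CARE core TGATGCAA, on either strand, was in 7 of the 38, or 18.4%, against 252 of all 27305 windows of the same length, or 0.923%. The core was in 1 of 10 windows of the factors and stress regulators, 0 of 5 of the synthesis enzymes and 0 of 7 of the transporters. Among the synthetases commonly listed as ATF4 targets, 6 of 10 windows held it, while 0 of the 6 windows of the other cytosolic synthetases did. The 30 bases around each of these 6 matches, around the match of CHAC1 and around a looser match in SLC7A1 are printed 5′ to 3′ on the strand of the gene, with the 8 matching letters in capitals. They are shown because the levels of these genes are compared with those of genes without the element.
AARS1 (chr16:70289675-70289704, minus strand): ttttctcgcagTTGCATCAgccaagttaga
CARS1 (chr11:3057407-3057436, minus strand): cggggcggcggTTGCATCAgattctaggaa
IARS1 (chr9:92293692-92293721, minus strand): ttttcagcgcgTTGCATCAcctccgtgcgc
MARS1 (chr12:57488053-57488082, plus strand): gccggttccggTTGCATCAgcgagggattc
NARS1 (chr18:57621804-57621833, minus strand): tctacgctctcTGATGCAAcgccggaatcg
TARS1 (chr5:33440956-33440985, plus strand): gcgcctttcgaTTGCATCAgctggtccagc
CHAC1 (chr15:40953251-40953280, plus strand): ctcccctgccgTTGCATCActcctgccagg
SLC7A1 (chr13:29595663-29595692, minus strand): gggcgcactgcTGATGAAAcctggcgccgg
In 6 of these 8 stretches the element reads TTGCATCA on the strand of the gene, that is TGATGCAA on the other strand. With the looser pattern TGATGNAA, which contains the core, 10 of the 38 windows matched, or 26.3%, against 3.67% of all windows, and the genes it added were ASNS, SLC7A1 and SLC3A2. The AP-1 site TGANTCA was in 4 of the 38 windows (ATF5, DDIT3, EIF2AK4 and SLC3A2), or 10.5%, against 7.76% of all. The TEAD site GGAATG, through which YAP and TAZ act, was in 1 window (EIF2AK4) of 38, or 2.63%, against 14.05% of all. The hypoxia response element core ACGTG was in 9 of the 38, or 23.7%, against 21.6% of all. These are matches of letters in one window and show no binding.

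Total counts per library lay between 2272459 and 4469956, and the libraries of a group differed by more than counting error, with chi-squared per degree of freedom from 4.91 to 20.2 over the 12 pairs of replicates; the widest pair was shYAPTAZ replicates 1 and 3. Levels are given as CPM, each gene's count as a share of the total of its library scaled to a common size, and fold changes come from an edgeR quasi-likelihood fit of all 12 libraries. The threshold for a call was 0.05 for p adjusted by Benjamini-Hochberg over the 12301 genes tested. The mRNAs aimed at were lower in their own knockdown: EPAS1, which encodes HIF2A, 12.7-fold in shHIF2A; JUND 9.1995-fold, JUN 1.79-fold and JUNB 1.697-fold in shJUNs; YAP1 4.78-fold and WWTR1 2.04-fold in shYAPTAZ. The call for JUNB, whose libraries overlapped the parental ones, ended without parental replicate 2 or 3 or shJUNs replicate 1, 2 or 3 (adjusted p from 0.0619 to 0.2002), and under limma-voom (0.0782) and when the 6 libraries compared were fitted alone (0.0506). Targets of one line also differed in others. In shHIF2A JUN (1.91-fold) and JUND (1.61-fold) were lower and WWTR1 (1.62-fold) was higher, in shYAPTAZ JUND was lower (2.09-fold), and in shJUNs WWTR1 was higher (1.42-fold), a call that ended without parental replicate 1 or shJUNs replicate 1 or 2 (adjusted p from 0.0687 to 0.0846). EPAS1 was also lower in shJUNs (5.47-fold) and shYAPTAZ (1.804-fold; this call ended without parental replicate 1 or 2 or shYAPTAZ replicate 2 or 3 (adjusted p from 0.06799 to 0.173), and when the 6 libraries compared were fitted alone (0.0842)). All 8 markers of renal epithelium and of the line had counts, the lineage factor PAX8 between 79.0 and 112 CPM. Their summed level was 10038 to 10799.5 CPM in shHIF2A, where 3 of the 8 were lower and 2 higher, and 14219 to 17555 CPM in the other groups. Most of that sum was VIM, with 89704 counts in shHIF2A and 147624 in the parental group. KRT8 had 3466 against 1868 counts and KRT18 2914 against 1205, so the sum does not stand for the 8 as a set. Of the other markers, 5 of 8 blood cell markers and 3 of 5 endothelial markers had no count, and their summed levels stayed at or under 3.49 and 0.969 CPM. Fibroblast markers summed to between 27.0 and 40.5 CPM outside shHIF2A and to between 53.0 and 67.8 CPM in shHIF2A, where the collagen gene COL1A1 was 3.79-fold higher. COL1A1 had 63 counts in the parental group and 231, 151 and 206 in shHIF2A, shJUNs and shYAPTAZ. LUM, another fibroblast marker, had 66 and then 166, 25 and 4. In shYAPTAZ 1 fibroblast marker was called higher and 1 lower. The part of all these markers in the results below was not tested.

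As a whole the 46 genes took 0.917% to 0.944% of all counts in the parental libraries, 0.497% to 0.625% in shHIF2A, 0.608% to 0.630% in shJUNs and 0.410% to 0.484% in shYAPTAZ. Each parental library thus gave a larger share of its RNA to these genes than any knockdown library did. In such bulk samples, fewer cells that express a gene and less RNA per cell cannot be told apart. Against the parental line, 23 of the 42 genes tested were lower in shHIF2A and 6 were higher, where 8.80% of all genes tested were lower and 9.84% higher. In shJUNs 20 were lower and 3 higher, against 8.93% and 10.3% of all genes. In shYAPTAZ 27 were lower and 2 higher, against 12.3% and 13.0%. The median log2 change of the 42 was -0.58 in shHIF2A, -0.37 in shJUNs and -0.88 in shYAPTAZ, while that of all genes tested was 0.005, -0.0014 and 0.022. The 3 comparisons share the parental libraries, so they are not independent of each other.

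Calls come more easily in abundant genes, and 35 of the 46 genes averaged at least 50 CPM. Of these 35, 21 were lower and 4 higher in shHIF2A, where 14.1% and 17.1% of all genes of at least 50 CPM were. In shJUNs 18 were lower and 2 higher, against 15.3% and 15.5%, and in shYAPTAZ 25 were lower and 2 higher, against 19.5% and 17.3%. Over all 42, the count called higher moved when 1 library was left out: in shHIF2A it was 3 without parental replicate 1, 2 or 3 or shHIF2A replicate 2 or 3, in shJUNs it was 1 without parental replicate 1 or shJUNs replicate 3, and in shYAPTAZ it was 1 without parental replicate 1 or 2 or shYAPTAZ replicate 3.

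**Figure D1:**
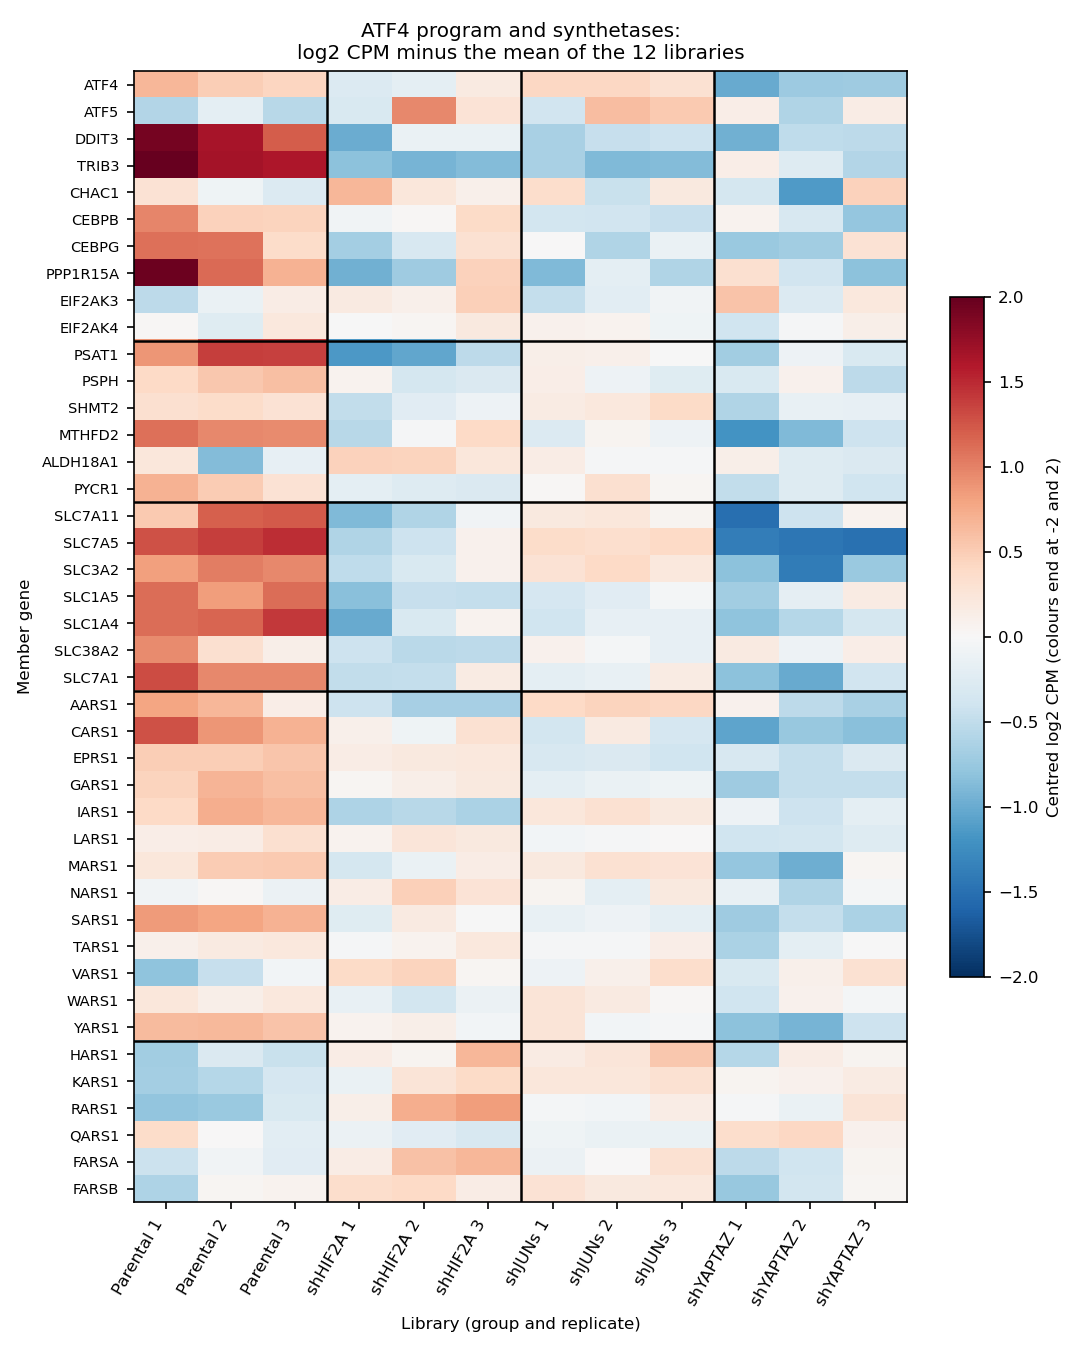
Level of the 42 tested genes (rows, ordered by role and divided by horizontal lines) in the 12 libraries (columns, 3 per group), as log2 CPM minus the mean of the 12 libraries; red is above and blue below that mean. Most rows of the first 4 blocks are red in the 3 parental columns, and KARS1 and RARS1 in the last block are blue there.

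Among the factors and stress regulators, TRIB3, DDIT3, PPP1R15A and CEBPG fell in each knockdown, whereas ATF4 mRNA itself fell in shHIF2A and shYAPTAZ and was not called in shJUNs. Of the 10 tested genes of this group, 5 were lower in shHIF2A (median log2 change of the 10, -0.57), 5 in shJUNs (-0.60) and 6 in shYAPTAZ (-1.06), and the rest were not called. The shares of all genes tested that were lower were 8.80%, 8.93% and 12.3% in the same order. Without parental replicate 1 the count in shHIF2A was 3.

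ATF4 (ENSG00000128272, chromosome 22, 39519695 to 39522683, plus strand, hg38) is the central factor of the program. It stood at 328, 288 and 279 CPM in the parental libraries and 169, 179.7 and 235 CPM in shHIF2A. ATF4 gave 278, 281 and 264 CPM in shJUNs and 99.9, 124 and 127 CPM in shYAPTAZ. The shYAPTAZ libraries were the lowest and the shHIF2A libraries lay between them and the parental ones, while the shJUNs and parental ranges overlapped. ATF4 was lower in shHIF2A by 1.53-fold (log2 -0.62 ± 0.15 SE, adjusted p = 0.00544) and in shYAPTAZ by 2.54-fold (log2 -1.34 ± 0.15 SE, adjusted p = 8.27e-07); in shJUNs the difference was not called (log2 -0.16 ± 0.15 SE, adjusted p = 0.507). Genes of chromosome 22 had a median log2 change of 0.31 in shJUNs and 0.27 in shYAPTAZ, opposite in sign to the change of ATF4.

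TRIB3 (ENSG00000101255, chromosome 20, 362835 to 397559, plus strand), a pseudokinase that ATF4 induces and that feeds back on it, stood at 476, 275 and 269.96 CPM in the parental libraries and 48.5, 45.5 and 47.4 CPM in shHIF2A. TRIB3 gave 55.9, 48.3 and 48.96 CPM in shJUNs and 93.3, 72.2 and 58.6 CPM in shYAPTAZ. Every parental library was above every knockdown library, with parental replicate 1 the highest. TRIB3 was lower in shHIF2A by 7.18-fold (log2 -2.84 ± 0.22 SE, adjusted p = 9.20e-09), in shJUNs by 6.81-fold (log2 -2.77 ± 0.22 SE, adjusted p = 8.79e-09) and in shYAPTAZ by 4.55-fold (log2 -2.19 ± 0.21 SE, adjusted p = 1.11e-07). DDIT3 (ENSG00000175197, chromosome 12, 57516588 to 57521737, minus strand), which encodes the stress factor CHOP, stood at 171, 142 and 105 CPM in the parental libraries and 22.1, 40.9 and 41.1 CPM in shHIF2A. DDIT3 gave 28.9, 33.4 and 34.5 CPM in shJUNs and 22.4, 31.5 and 31.5 CPM in shYAPTAZ. Again no knockdown library reached the lowest parental one. DDIT3 was lower in shHIF2A by 4.02-fold (log2 -2.01 ± 0.24 SE, adjusted p = 4.08e-06), in shJUNs by 4.43-fold (log2 -2.15 ± 0.24 SE, adjusted p = 1.19e-06) and in shYAPTAZ by 4.84-fold (log2 -2.28 ± 0.24 SE, adjusted p = 4.23e-07). Exons of DDIT3 overlap those of MARS1 on the opposite strand by 355 bases, and the treatment of reads they share is unknown here.

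PPP1R15A (GADD34), the regulatory subunit by which protein phosphatase 1 removes phosphate from eIF2, stood at 75.9, 42.2 and 31.2 CPM in the parental libraries and 9.36, 11.5 and 26.5 CPM in shHIF2A. PPP1R15A gave 10.3, 17.1 and 12.8 CPM in shJUNs and 23.3, 14.5 and 10.7 CPM in shYAPTAZ. Its knockdown libraries all lay below the parental ones, whose own spread was wide. PPP1R15A was lower in shHIF2A by 3.17-fold (log2 -1.66 ± 0.40 SE, adjusted p = 0.00551), in shJUNs by 3.801-fold (log2 -1.93 ± 0.40 SE, adjusted p = 0.00157) and in shYAPTAZ by 3.11-fold (log2 -1.64 ± 0.40 SE, adjusted p = 0.00430), and the shHIF2A call ended without parental replicate 1 (adjusted p = 0.0526). CEBPG, a dimer partner of ATF4, stood at 80.1, 78.8 and 48.04 CPM in the parental libraries and 22.7, 29.7 and 46.03 CPM in shHIF2A. CEBPG gave 38.03, 24.97 and 35.01 CPM in shJUNs and 21.6, 22.7 and 46.3 CPM in shYAPTAZ. Parental replicate 3 was close to the highest knockdown libraries. CEBPG was lower in shHIF2A by 2.11-fold (log2 -1.07 ± 0.30 SE, adjusted p = 0.0158), in shJUNs by 2.16-fold (log2 -1.11 ± 0.30 SE, adjusted p = 0.0116) and in shYAPTAZ by 2.25-fold (log2 -1.17 ± 0.30 SE, adjusted p = 0.00655). Its call ended in shHIF2A without parental replicate 1 or 2 or shHIF2A replicate 1 or 2 (adjusted p from 0.0644 to 0.0826), and in shJUNs without parental replicate 1 or 2 or shJUNs replicate 2 (adjusted p from 0.0532 to 0.0718).

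CEBPB, another C/EBP factor that shares CAREs with ATF4, stood at 378, 264 and 261 CPM in the parental libraries and 179.8, 194 and 252 CPM in shHIF2A. CEBPB gave 151, 151 and 144 CPM in shJUNs and 197, 154 and 114 CPM in shYAPTAZ. The shJUNs libraries were tightly grouped and the shHIF2A ones came nearest to the parental range. CEBPB was lower in shJUNs by 2.08-fold (log2 -1.05 ± 0.19 SE, adjusted p = 4.62e-04) and in shYAPTAZ by 1.94-fold (log2 -0.96 ± 0.19 SE, adjusted p = 7.76e-04), and missed the threshold in shHIF2A (log2 -0.53 ± 0.19 SE, adjusted p = 0.0552), where it was called without parental replicate 3, shHIF2A replicate 3 or shYAPTAZ replicate 1 or 3 (adjusted p from 0.0196 to 0.0448), and with RLE scaling (0.0498), with no filter on low counts (0.0168), with DESeq2 (0.0432), under limma-voom (0.0456) and when the 6 libraries compared were fitted alone (0.0393). The 2 eIF2 kinases on the list were not called in any comparison with parental. EIF2AK4 (GCN2), the eIF2 kinase that responds to uncharged tRNA, was 107 ± 17.3 CPM (SD, n = 3) in parental cells and 112 ± 9.44 CPM, 111 ± 6.43 CPM and 99.97 ± 19.4 CPM in shHIF2A, shJUNs and shYAPTAZ, with adjusted p of 0.828, 0.977 and 0.746. EIF2AK3 (PERK), the kinase of the endoplasmic reticulum, was 22.1 ± 5.13 CPM in parental cells, with adjusted p of 0.336, 0.838 and 0.411 in the same order. ATF5, a relative of ATF4, was 8.89 ± 1.44 CPM in parental cells and overlapped them in each knockdown (adjusted p 0.139, 0.188 and 0.542). CHAC1, which degrades glutathione and holds a CARE core in its promoter, was near the limit of detection at 4.15 ± 0.943 CPM in parental cells (adjusted p 0.705, 0.936 and 0.867).

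NUPR1, a small stress-induced chromatin protein, had 24 counts in all 12 libraries. Its exons overlap those of another gene on the same strand by 909 bases, and that gene is listed at 0 counts, so the 24 counts cannot be read as the level of NUPR1. Of the 24, 16 were in shYAPTAZ and 2 in parental cells, a ratio of 8.40 with a 95% exact binomial (Clopper-Pearson) interval of 1.97 to 75.3 that covers counting error only.

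**Figure D2:**
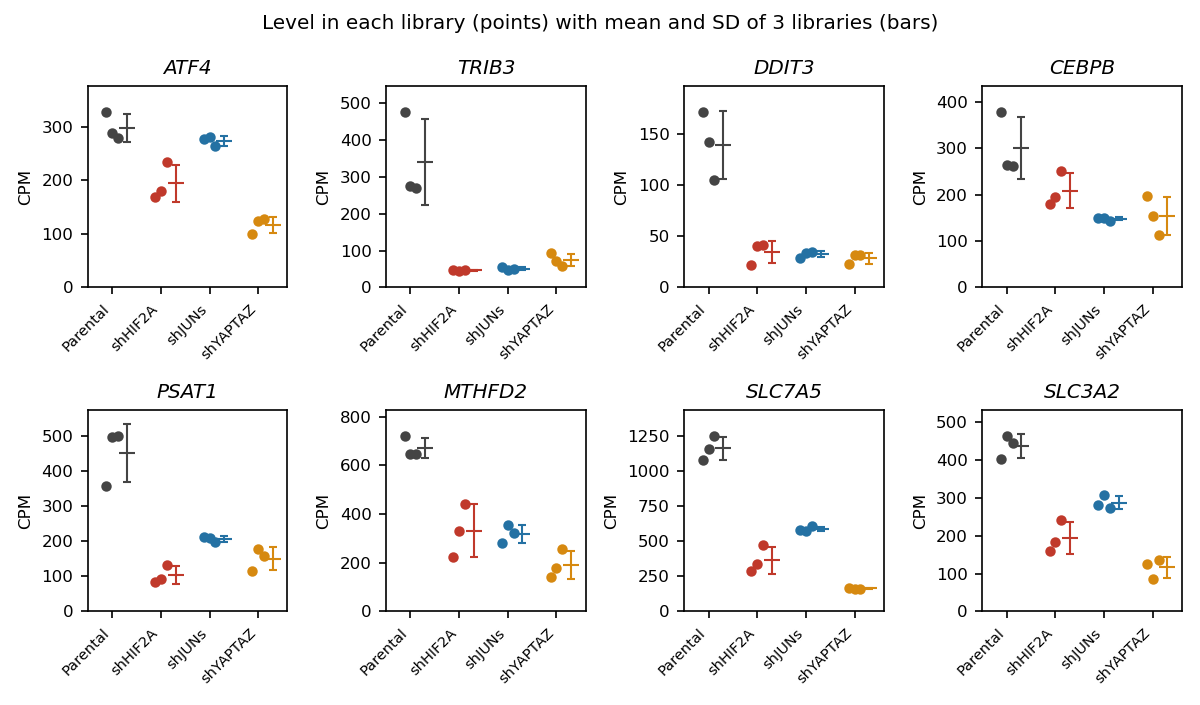
CPM (vertical axes, from 0) of 8 genes in the 3 libraries of each group (points), with the mean and SD of each group beside them (bars). DDIT3, TRIB3, PSAT1, MTHFD2, SLC7A5 and SLC3A2 show the parental libraries above every knockdown library, while for ATF4 the shJUNs and parental libraries overlap.

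PSAT1, PSPH and MTHFD2, of serine and one-carbon metabolism, fell in each knockdown. Of the 6 enzymes tested, 5 were lower in shHIF2A (median log2 change -0.73) and 1 was higher, 3 were lower in shJUNs (-0.48) and 5 in shYAPTAZ (-0.82). Among all genes tested, 8.80%, 8.93% and 12.3% were lower in the same order, and 9.84% were higher in shHIF2A. PSAT1, the transaminase of serine synthesis (ENSG00000135069, chromosome 9, 78297125 to 78330093, plus strand), stood at 357, 498 and 499.8 CPM in the parental libraries and 85.1, 93.9 and 134 CPM in shHIF2A. PSAT1 gave 211, 211 and 197 CPM in shJUNs and 115, 179 and 157 CPM in shYAPTAZ. The shHIF2A libraries were the lowest on average, and no knockdown library reached the parental range. PSAT1 was lower in shHIF2A by 4.34-fold (log2 -2.12 ± 0.19 SE, adjusted p = 5.04e-08), in shJUNs by 2.24-fold (log2 -1.17 ± 0.18 SE, adjusted p = 7.32e-05) and in shYAPTAZ by 2.99-fold (log2 -1.58 ± 0.18 SE, adjusted p = 1.12e-06). MTHFD2, the mitochondrial folate enzyme of one-carbon metabolism (ENSG00000065911, chromosome 2, 74186172 to 74217565, plus strand), stood at 719, 645 and 647 CPM in the parental libraries and 224, 329 and 442 CPM in shHIF2A. MTHFD2 gave 281, 356 and 321 CPM in shJUNs and 142, 180.01 and 255 CPM in shYAPTAZ. Here shYAPTAZ gave the lowest values. MTHFD2 was lower in shHIF2A by 2.02-fold (log2 -1.01 ± 0.20 SE, adjusted p = 0.00161), in shJUNs by 2.16-fold (log2 -1.11 ± 0.20 SE, adjusted p = 7.05e-04) and in shYAPTAZ by 3.47-fold (log2 -1.80 ± 0.21 SE, adjusted p = 3.00e-06).

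PSPH, the phosphatase that completes serine synthesis, stood at 78.7, 86.6 and 90.7 CPM in the parental libraries and 61.2, 46.5 and 48.5 CPM in shHIF2A. PSPH gave 65.996, 56.5 and 51.9 CPM in shJUNs and 47.1, 63.05 and 41.7 CPM in shYAPTAZ. Its differences were smaller, though no knockdown library overlapped the parental ones. PSPH was lower in shHIF2A by 1.63-fold (log2 -0.71 ± 0.20 SE, adjusted p = 0.0168), in shJUNs by 1.504-fold (log2 -0.59 ± 0.20 SE, adjusted p = 0.0402) and in shYAPTAZ by 1.68-fold (log2 -0.75 ± 0.20 SE, adjusted p = 0.00841). Its call ended in shHIF2A without parental replicate 3 or shHIF2A replicate 2 or 3 (adjusted p from 0.0514 to 0.0762), and in shJUNs without parental replicate 1, 2 or 3 or shJUNs replicate 1, 2 or 3 (adjusted p from 0.0504 to 0.1603), and with no filter on low counts (0.0636). SHMT2, which passes a carbon from serine to folate in mitochondria, stood at 171, 176 and 168 CPM in the parental libraries and 95.8, 118 and 129 CPM in shHIF2A. SHMT2 gave 156, 162 and 184 CPM in shJUNs and 88.5, 123 and 125 CPM in shYAPTAZ. The shJUNs libraries lay on both sides of the narrow parental range, and those of the other 2 knockdowns lay below it. SHMT2 was lower in shHIF2A by 1.503-fold (log2 -0.59 ± 0.16 SE, adjusted p = 0.0133) and in shYAPTAZ by 1.53-fold (log2 -0.61 ± 0.16 SE, adjusted p = 0.00743), and in shJUNs it was not called (log2 -0.07 ± 0.16 SE, adjusted p = 0.807). The shHIF2A call ended without shHIF2A replicate 1 (adjusted p = 0.0792). SHMT2 lies on chromosome 12, whose genes had a median log2 change of 0.29 in shJUNs, and the part of that shift was not tested.

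The proline enzymes PYCR1 and ALDH18A1 differed from each other. PYCR1, which catalyses the last step of proline synthesis, stood at 244, 212 and 184 CPM in the parental libraries and 129.6, 125 and 123 CPM in shHIF2A. PYCR1 gave 154, 191 and 159 CPM in shJUNs and 104, 125 and 115 CPM in shYAPTAZ. In shHIF2A and shYAPTAZ all libraries were below the parental ones. PYCR1 was lower in shHIF2A by 1.69-fold (log2 -0.76 ± 0.15 SE, adjusted p = 0.00139) and in shYAPTAZ by 1.85-fold (log2 -0.89 ± 0.15 SE, adjusted p = 1.79e-04), and in shJUNs it missed the threshold (log2 -0.38 ± 0.15 SE, adjusted p = 0.0837). ALDH18A1, which catalyses the first step, stood at 169, 78.8 and 129 CPM in the parental libraries and 197, 197 and 171 CPM in shHIF2A. ALDH18A1 gave 163, 146 and 147 CPM in shJUNs and 153, 121 and 119 CPM in shYAPTAZ. Parental replicate 2 was far below the other parental libraries. ALDH18A1 was higher in shHIF2A by 1.51-fold (log2 0.59 ± 0.20 SE, adjusted p = 0.0428), a call that ended without parental replicate 2 or 3, shHIF2A replicate 1, 2 or 3, shJUNs replicate 1, 2 or 3 or shYAPTAZ replicate 2 (adjusted p from 0.0507 to 0.245), and when the 6 libraries compared were fitted alone (0.0657); in shJUNs and shYAPTAZ it was not called (adjusted p 0.429 and 0.839).

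ASNS, asparagine synthetase and a long-known ATF4 target, had 15 counts in all 12 libraries. Its exons overlap those of another gene on the same strand by 2415 bases, and that gene is listed at 0 counts, so the level of ASNS cannot be read from this table. PHGDH, the entry enzyme of serine synthesis, had 18 counts over the 12 libraries, between 0 and 1.21 CPM in each, and at this depth no difference was detectable.

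The amino acid transporters fell. All 7 tested were lower in shHIF2A (median log2 change -1.51), all 7 in shJUNs (-1.02) and 6 in shYAPTAZ (-1.79), where 8.80%, 8.93% and 12.3% of all genes tested were. SLC7A5 (LAT1), the light chain of the leucine exchanger (ENSG00000103257, chromosome 16, 87830023 to 87869507, minus strand), stood at 1081, 1158 and 1249.5 CPM in the parental libraries and 289.5, 335 and 472 CPM in shHIF2A. SLC7A5 gave 582, 577 and 608 CPM in shJUNs and 167, 163 and 161 CPM in shYAPTAZ. The 4 groups did not overlap, with parental highest, then shJUNs, then shHIF2A, then shYAPTAZ. SLC7A5 was lower in shHIF2A by 3.18-fold (log2 -1.67 ± 0.14 SE, adjusted p = 3.32e-08), in shJUNs by 2.02-fold (log2 -1.02 ± 0.14 SE, adjusted p = 1.93e-05) and in shYAPTAZ by 7.08-fold (log2 -2.82 ± 0.15 SE, adjusted p = 6.26e-12). Genes of chromosome 16 had a median log2 change of 0.34 in shJUNs and 0.33 in shYAPTAZ, upward where SLC7A5 went down. SLC3A2 (CD98), the heavy chain that carries SLC7A5 and SLC7A11 to the membrane (ENSG00000168003, chromosome 11, 62856004 to 62888880, plus strand), stood at 403, 463 and 446 CPM in the parental libraries and 159, 184 and 241 CPM in shHIF2A. SLC3A2 gave 282, 306 and 273 CPM in shJUNs and 126, 85.7 and 137 CPM in shYAPTAZ. Its groups came in the same order and did not overlap either. SLC3A2 was lower in shHIF2A by 2.25-fold (log2 -1.17 ± 0.17 SE, adjusted p = 4.81e-05), in shJUNs by 1.56-fold (log2 -0.64 ± 0.17 SE, adjusted p = 0.00873) and in shYAPTAZ by 3.75-fold (log2 -1.91 ± 0.17 SE, adjusted p = 3.87e-08), and the shJUNs call ended without shJUNs replicate 3 (adjusted p = 0.0522).

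SLC7A11 (xCT), which exchanges glutamate for cystine, stood at 95.7, 152 and 157 CPM in the parental libraries and 35.2, 43.4 and 63.5 CPM in shHIF2A. SLC7A11 gave 77.2, 79.5 and 70.9 CPM in shJUNs and 22.4, 49.5 and 70.99 CPM in shYAPTAZ. The shYAPTAZ libraries ran from far below to level with shJUNs. SLC7A11 was lower in shHIF2A by 2.85-fold (log2 -1.51 ± 0.30 SE, adjusted p = 0.00153), in shJUNs by 1.82-fold (log2 -0.87 ± 0.29 SE, adjusted p = 0.0404) and in shYAPTAZ by 2.79-fold (log2 -1.48 ± 0.30 SE, adjusted p = 0.00112), and the shJUNs call ended without parental replicate 2 or 3, shHIF2A replicate 2, shJUNs replicate 1, 2 or 3 or shYAPTAZ replicate 2 (adjusted p from 0.0555 to 0.134). SLC7A1 (CAT1), the arginine and lysine carrier with a looser CARE match 7 bases into its transcript, stood at 152, 119.9 and 120.2 CPM in the parental libraries and 42.8, 43.99 and 69.04 CPM in shHIF2A. SLC7A1 gave 54.4, 57.002 and 71.4 CPM in shJUNs and 33.9, 30.3 and 47.98 CPM in shYAPTAZ. All knockdown libraries were well below the parental ones. SLC7A1 was lower in shHIF2A by 2.52-fold (log2 -1.33 ± 0.22 SE, adjusted p = 1.65e-04), in shJUNs by 2.2001-fold (log2 -1.14 ± 0.21 SE, adjusted p = 6.40e-04) and in shYAPTAZ by 3.47-fold (log2 -1.79 ± 0.22 SE, adjusted p = 3.02e-06). Genes of chromosome 13, where it lies, had a median log2 change of -0.52 in shYAPTAZ, the same direction; the part of that shift in the result was not tested.

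SLC1A5 (ASCT2), a glutamine carrier, stood at 442, 359.9 and 443 CPM in the parental libraries and 112, 148 and 146 CPM in shHIF2A. SLC1A5 gave 163, 179 and 204 CPM in shJUNs and 122, 178 and 230.4 CPM in shYAPTAZ. Every knockdown library was below every parental one. SLC1A5 was lower in shHIF2A by 3.06-fold (log2 -1.61 ± 0.18 SE, adjusted p = 1.76e-06), in shJUNs by 2.34-fold (log2 -1.22 ± 0.18 SE, adjusted p = 3.97e-05) and in shYAPTAZ by 2.33-fold (log2 -1.22 ± 0.18 SE, adjusted p = 2.70e-05). SLC1A4 (ASCT1), its relative that carries alanine, serine and cysteine, stood at 103, 106 and 128 CPM in the parental libraries and 22.97, 38.4 and 49.9 CPM in shHIF2A. SLC1A4 gave 36.2, 43.4 and 43.5 CPM in shJUNs and 26.4, 31.8 and 37.6 CPM in shYAPTAZ. The separation was as complete. SLC1A4 was lower in shHIF2A by 3.04-fold (log2 -1.60 ± 0.23 SE, adjusted p = 4.98e-05), in shJUNs by 2.81-fold (log2 -1.49 ± 0.23 SE, adjusted p = 7.49e-05) and in shYAPTAZ by 3.49-fold (log2 -1.80 ± 0.24 SE, adjusted p = 6.49e-06).

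SLC38A2 (SNAT2), a sodium-coupled carrier of neutral amino acids, stood at 199.98, 129.6 and 113 CPM in the parental libraries and 77.1, 71.6 and 72.2 CPM in shHIF2A. SLC38A2 gave 113, 104 and 95.9 CPM in shJUNs and 115, 96.5 and 116 CPM in shYAPTAZ. Parental replicate 1 was far above the other parental libraries, and shYAPTAZ overlapped the parental range, while shJUNs replicate 1 came just under parental replicate 3. SLC38A2 was lower in shHIF2A by 1.99-fold (log2 -0.996 ± 0.19 SE, adjusted p = 8.21e-04) and in shJUNs by 1.45-fold (log2 -0.54 ± 0.19 SE, adjusted p = 0.0464), and was not called in shYAPTAZ (log2 -0.43 ± 0.19 SE, adjusted p = 0.101), except without parental replicate 3 (adjusted p = 0.0316). The shJUNs call ended without parental replicate 1 or 2, shHIF2A replicate 1, 2 or 3, shJUNs replicate 1, 2 or 3 or shYAPTAZ replicate 2 (adjusted p from 0.0505 to 0.355), and under limma-voom (0.0554). The glycine carrier SLC6A9 was too low to test, with 46 counts in all: 34 of them were in shJUNs and 3 in parental cells, a ratio of 9.09 (95% exact binomial interval 2.86 to 46.3, counting error only), and its exons overlap those of CCDC24 on the opposite strand by 413 bases. All 7 transporters were lower in shJUNs, but without shJUNs replicate 3 the count was 4.

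**Figure D3:**
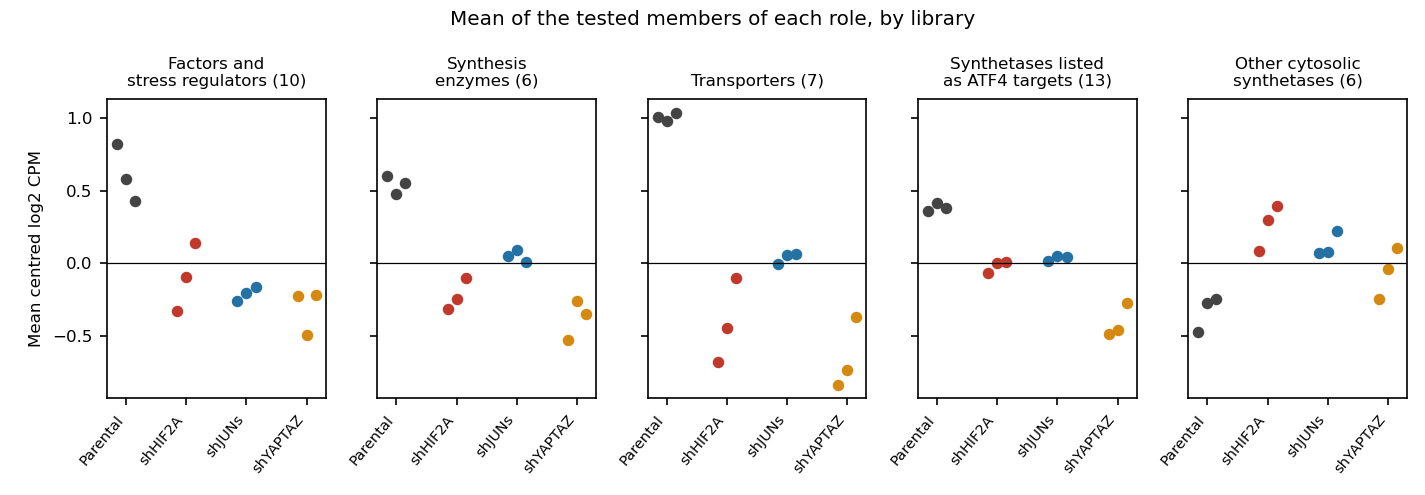
Mean over the tested genes of each role of the centred log2 CPM (vertical axis), by library (points, 3 per group); the number of genes is in each title. In the first 4 panels the 3 parental libraries lie above every knockdown library, and in the panel of the 6 other cytosolic synthetases they lie between -0.47 and -0.24, below every shHIF2A and shJUNs library and touching the shYAPTAZ range (-0.24 to 0.11).

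The 19 cytosolic synthetases did not move together. Among the 13 commonly listed as ATF4 targets, 6 were lower and 1 higher in shHIF2A (median log2 change -0.46), 5 were lower in shJUNs (-0.23) and 10 in shYAPTAZ (-0.88). Among the 6 others, 4 were higher in shHIF2A (0.71), 3 in shJUNs (0.49) and 2 in shYAPTAZ (0.30), and none of the 6 had an adjusted p under 0.05 in the lower direction by edgeR, DESeq2 or limma-voom. Of all genes tested, 8.80%, 8.93% and 12.3% were lower and 9.84%, 10.3% and 13.0% higher in shHIF2A, shJUNs and shYAPTAZ. The genes were listed with earlier results of these data known, so these counts are a description.

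CARS1, for cysteine (ENSG00000110619, chromosome 11, 3000922 to 3057613, minus strand), showed the largest fall of the 19 in shYAPTAZ. It stood at 203, 153 and 135 CPM in the parental libraries and 88.2, 78.999 and 103 CPM in shHIF2A. CARS1 gave 65.8, 96.9 and 68.2 CPM in shJUNs and 39.2, 49.2 and 47.01 CPM in shYAPTAZ. The parental libraries were all above the knockdown ones. CARS1 was lower in shHIF2A by 1.81-fold (log2 -0.86 ± 0.19 SE, adjusted p = 0.00335), in shJUNs by 2.18-fold (log2 -1.13 ± 0.19 SE, adjusted p = 2.67e-04) and in shYAPTAZ by 3.604-fold (log2 -1.85 ± 0.20 SE, adjusted p = 5.10e-07). SARS1, for serine, stood at 203, 193 and 182 CPM in the parental libraries and 94.1, 128 and 112 CPM in shHIF2A. SARS1 gave 103, 108 and 101 CPM in shJUNs and 67.3, 80.4 and 73.7 CPM in shYAPTAZ. Its 3 knockdowns were each fully separated from parental cells. SARS1 was lower in shHIF2A by 1.73-fold (log2 -0.79 ± 0.15 SE, adjusted p = 0.00106), in shJUNs by 1.90-fold (log2 -0.93 ± 0.15 SE, adjusted p = 1.92e-04) and in shYAPTAZ by 2.603-fold (log2 -1.38 ± 0.16 SE, adjusted p = 1.05e-06). GARS1, for glycine, stood at 567, 667 and 637 CPM in the parental libraries and 423, 451 and 480.2 CPM in shHIF2A. GARS1 gave 369, 390.1 and 403 CPM in shJUNs and 248, 300.1 and 304 CPM in shYAPTAZ. The order parental, shHIF2A, shJUNs, shYAPTAZ held without overlap. GARS1 was lower in shHIF2A by 1.38-fold (log2 -0.46 ± 0.12 SE, adjusted p = 0.00956), a call that ended without parental replicate 2 (adjusted p = 0.0527), in shJUNs by 1.65-fold (log2 -0.72 ± 0.12 SE, adjusted p = 2.01e-04) and in shYAPTAZ by 2.19-fold (log2 -1.13 ± 0.12 SE, adjusted p = 4.79e-07).

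YARS1, for tyrosine, stood at 244, 243 and 232 CPM in the parental libraries and 162, 169 and 150.3 CPM in shHIF2A. YARS1 gave 191, 155 and 158 CPM in shJUNs and 85.8, 81.96 and 119 CPM in shYAPTAZ. The fall was deepest in shYAPTAZ, and no knockdown library reached the parental range. YARS1 was lower in shHIF2A by 1.49-fold (log2 -0.57 ± 0.16 SE, adjusted p = 0.0128), in shJUNs by 1.46-fold (log2 -0.55 ± 0.16 SE, adjusted p = 0.0162) and in shYAPTAZ by 2.49-fold (log2 -1.32 ± 0.16 SE, adjusted p = 2.38e-06). The shHIF2A call ended without shHIF2A replicate 3 (adjusted p = 0.0539), and the shJUNs call without parental replicate 2 or shJUNs replicate 2 or 3 (adjusted p from 0.0527 to 0.0859). EPRS1, which serves both glutamate and proline, stood at 389, 389 and 409.9 CPM in the parental libraries and 301, 318 and 323 CPM in shHIF2A. EPRS1 gave 225, 232 and 216 CPM in shJUNs and 217, 199 and 229 CPM in shYAPTAZ. The shJUNs and shYAPTAZ libraries lay at one level and the shHIF2A ones above them. EPRS1 was lower in shJUNs by 1.81-fold (log2 -0.85 ± 0.12 SE, adjusted p = 3.50e-05) and in shYAPTAZ by 1.83-fold (log2 -0.88 ± 0.12 SE, adjusted p = 1.71e-05), and missed the threshold in shHIF2A (log2 -0.33 ± 0.12 SE, adjusted p = 0.0622). It was called there without shYAPTAZ replicate 1 or 3 (adjusted p 0.04498 and 0.0420), and with a filter at 10 CPM (0.04103) and with DESeq2 (0.01701).

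AARS1, for alanine, and IARS1, for isoleucine, fell in shHIF2A and shYAPTAZ and were not called in shJUNs. In shJUNs the median log2 change was 0.34 for chromosome 16, which holds AARS1, and 0.16 for chromosome 9, which holds IARS1. The part of these upward shifts in the missing calls was not tested. AARS1 stood at 216, 197 and 137 CPM in the parental libraries and 92.2, 78.4 and 78.5 CPM in shHIF2A. AARS1 gave 167, 173 and 172 CPM in shJUNs and 129.8, 86.4 and 80.2 CPM in shYAPTAZ. The shJUNs libraries sat inside the parental range, and the shHIF2A and shYAPTAZ libraries overlapped each other below it. AARS1 was lower in shHIF2A by 2.196-fold (log2 -1.14 ± 0.20 SE, adjusted p = 3.06e-04) and in shYAPTAZ by 1.85-fold (log2 -0.89 ± 0.20 SE, adjusted p = 0.00175), and was not called in shJUNs (log2 -0.14 ± 0.19 SE, adjusted p = 0.684). IARS1 stood at 368, 458 and 443 CPM in the parental libraries and 179, 189 and 181 CPM in shHIF2A. IARS1 gave 332, 355 and 329 CPM in shJUNs and 254, 208 and 247 CPM in shYAPTAZ. Its shHIF2A libraries lay below all the others. IARS1 was lower in shHIF2A by 2.31-fold (log2 -1.21 ± 0.13 SE, adjusted p = 1.56e-06) and in shYAPTAZ by 1.78-fold (log2 -0.83 ± 0.13 SE, adjusted p = 7.56e-05), and missed the threshold in shJUNs (log2 -0.36 ± 0.13 SE, adjusted p = 0.0598), where it was called without parental replicate 1 or shYAPTAZ replicate 1 or 3 (adjusted p from 0.0240 to 0.04496), and with a filter at 10 CPM (0.0493), with DESeq2 (0.0329), under limma-voom (0.03696) and when the 6 libraries compared were fitted alone (0.0313).

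MARS1, for methionine, stood at 96.004, 117 and 119 CPM in the parental libraries and 63.2, 75.3 and 91.7 CPM in shHIF2A. MARS1 gave 95.97, 105 and 103 CPM in shJUNs and 46.6, 41.6 and 85.5 CPM in shYAPTAZ. The shJUNs libraries overlapped the parental ones and shYAPTAZ replicate 3 stood above its 2 companions. MARS1 was lower in shYAPTAZ by 1.898-fold (log2 -0.92 ± 0.22 SE, adjusted p = 0.00331) and was not called in shHIF2A or shJUNs (adjusted p 0.0906 and 0.646). In shHIF2A it was called without shYAPTAZ replicate 3 (adjusted p = 0.0271), and when the 6 libraries compared were fitted alone (0.0488). Chromosome 12, which holds MARS1, had a median log2 change of 0.29 in shJUNs, and the part of that shift was not tested. LARS1, for leucine, was lower in shYAPTAZ by 1.46-fold (log2 -0.55 ± 0.15 SE, adjusted p = 0.00779), from 140.02, 140.1 and 159 CPM in parental cells to 93.7, 97.7 and 107 CPM. TARS1, for threonine, was lower in shYAPTAZ by 1.34-fold (log2 -0.42 ± 0.14 SE, adjusted p = 0.0307), a call that ended without parental replicate 2 or 3 or shYAPTAZ replicate 1 or 2 (adjusted p from 0.0603 to 0.134), and when the 6 libraries compared were fitted alone (0.110). NARS1, for asparagine, and WARS1, for tryptophan, were not called against parental: NARS1 had adjusted p of 0.125, 0.786 and 0.435 and WARS1 of 0.129, 0.939 and 0.268 in shHIF2A, shJUNs and shYAPTAZ. Genes of chromosome 14, which holds WARS1, had median log2 changes of 0.39 in shJUNs and 0.89 in shYAPTAZ, and WARS1 itself gave -0.03 and -0.29.

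Listed synthetases were called lower both with and without a CARE core in the promoter window. In shYAPTAZ 5 of the 6 listed synthetases with a core match and 3 of the 4 with a window but no match were lower. In shHIF2A the counts were 3 of 6 and 2 of 4, and in shJUNs 1 of 6 and 3 of 4. Beside these, 12.3%, 8.80% and 8.93% of all genes tested were lower in shYAPTAZ, shHIF2A and shJUNs. NARS1 carries the core and was not called, while GARS1, SARS1 and EPRS1 have windows without it and fell in shJUNs and shYAPTAZ. The end of the SARS1 window was not found in a GENCODE transcript of that gene, so its start site is less sure. With so few genes these counts are a description, and their difference was not tested.

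VARS1, for valine, was the only listed synthetase called higher. It stood at 33.3, 41.9 and 56.2 CPM in the parental libraries and 75.4, 79.6 and 60.3 CPM in shHIF2A. VARS1 gave 55.3, 64.1 and 76.9 CPM in shJUNs and 46.2, 62.7 and 72.9 CPM in shYAPTAZ. The shHIF2A libraries lay just above the parental ones and the rest overlapped them. VARS1 was higher in shHIF2A by 1.64-fold (log2 0.71 ± 0.22 SE, adjusted p = 0.0277), a call that ended without parental replicate 1 or 2 or shHIF2A replicate 1 or 2 (adjusted p from 0.0801 to 0.137). It was called higher in shJUNs and in shYAPTAZ without parental replicate 3 (adjusted p 0.0360 and 0.0468).

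RARS1, for arginine (ENSG00000113643, chromosome 5, 168486451 to 168519301, plus strand), showed the largest rise among the 19. It stood at 93.6, 96.6 and 131 CPM in the parental libraries and 174, 271 and 292 CPM in shHIF2A. RARS1 gave 162, 161 and 186 CPM in shJUNs and 156, 149 and 197 CPM in shYAPTAZ. Every parental library was below every knockdown library. RARS1 was higher in shHIF2A by 2.29-fold (log2 1.19 ± 0.19 SE, adjusted p = 1.05e-04), in shJUNs by 1.54-fold (log2 0.62 ± 0.18 SE, adjusted p = 0.0204) and in shYAPTAZ by 1.56-fold (log2 0.64 ± 0.19 SE, adjusted p = 0.0132). The shJUNs call ended without parental replicate 1 or 2 or shJUNs replicate 3 (adjusted p from 0.0843 to 0.0972), and the shYAPTAZ call without parental replicate 1 or 2 or shYAPTAZ replicate 3 (adjusted p from 0.0573 to 0.0671). KARS1, for lysine (ENSG00000065427, chromosome 16, 75627474 to 75648643, minus strand), stood at 113, 121 and 144 CPM in the parental libraries and 162, 215 and 236 CPM in shHIF2A. KARS1 gave 215, 216 and 229.9 CPM in shJUNs and 184, 192 and 205 CPM in shYAPTAZ. The parental libraries were again the lowest. KARS1 was higher in shHIF2A by 1.62-fold (log2 0.70 ± 0.15 SE, adjusted p = 0.002799), in shJUNs by 1.704-fold (log2 0.77 ± 0.15 SE, adjusted p = 0.00112) and in shYAPTAZ by 1.54-fold (log2 0.62 ± 0.15 SE, adjusted p = 0.00448). Its chromosome 16 had median log2 changes of 0.04, 0.34 and 0.33 in the 3 comparisons, the same direction as KARS1 in the last 2, and their part in the result was not tested.

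HARS1, for histidine, stood at 25.6, 34.1 and 30.6 CPM in the parental libraries and 45.9, 43.7 and 66.6 CPM in shHIF2A. HARS1 gave 47.7, 50.8 and 62.7 CPM in shJUNs and 27.3, 46.3 and 43.9 CPM in shYAPTAZ. In shHIF2A and shJUNs all libraries were above the parental ones, and shYAPTAZ replicate 1 fell among them. HARS1 was higher in shHIF2A by 1.72-fold (log2 0.78 ± 0.24 SE, adjusted p = 0.0252) and in shJUNs by 1.73-fold (log2 0.79 ± 0.24 SE, adjusted p = 0.0218). Those calls ended in shHIF2A without parental replicate 1 or 3 or shHIF2A replicate 3 (adjusted p from 0.0565 to 0.143), and in shJUNs without parental replicate 1 or 3 or shJUNs replicate 3 (adjusted p from 0.05195 to 0.114). Exons of HARS1 overlap those of WDR55 by 1090 bases on the opposite strand, and WDR55 was called higher in shHIF2A (log2 1.04, adjusted p = 0.00295), shJUNs (0.67, 0.0425) and shYAPTAZ (0.86, 0.00828). If counting ignored strand, which the sources do not state, the 2 genes cannot be told apart. FARSA, a subunit of the phenylalanine enzyme, stood at 22.2, 28.3 and 25.6 CPM in the parental libraries and 32.9, 45.2 and 48.1 CPM in shHIF2A. FARSA gave 28.2, 30.9 and 38.2 CPM in shJUNs and 20.2, 22.7 and 31.7 CPM in shYAPTAZ. Only the shHIF2A libraries cleared the parental range. FARSA was higher in shHIF2A by 1.66-fold (log2 0.73 ± 0.25 SE, adjusted p = 0.0457), a call that ended without parental replicate 1, 2 or 3, shHIF2A replicate 2 or 3, shJUNs replicate 1, 2 or 3 or shYAPTAZ replicate 2 (adjusted p from 0.0565 to 0.149), and with no filter on low counts (0.0863), under limma-voom (0.0527) and when the 6 libraries compared were fitted alone (0.0535). FARSB, the other subunit, and QARS1, for glutamine, were not called: FARSB had adjusted p of 0.1897, 0.283 and 0.612, and QARS1 of 0.247, 0.476 and 0.359. The counts of these 6 depended on single libraries: in shHIF2A 2 were called without parental replicate 1 or 3 or shHIF2A replicate 3, in shJUNs 1 without parental replicate 1 or shJUNs replicate 3, and in shYAPTAZ 1 without parental replicate 1 or 2 or shYAPTAZ replicate 3.

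**Figure D4:**
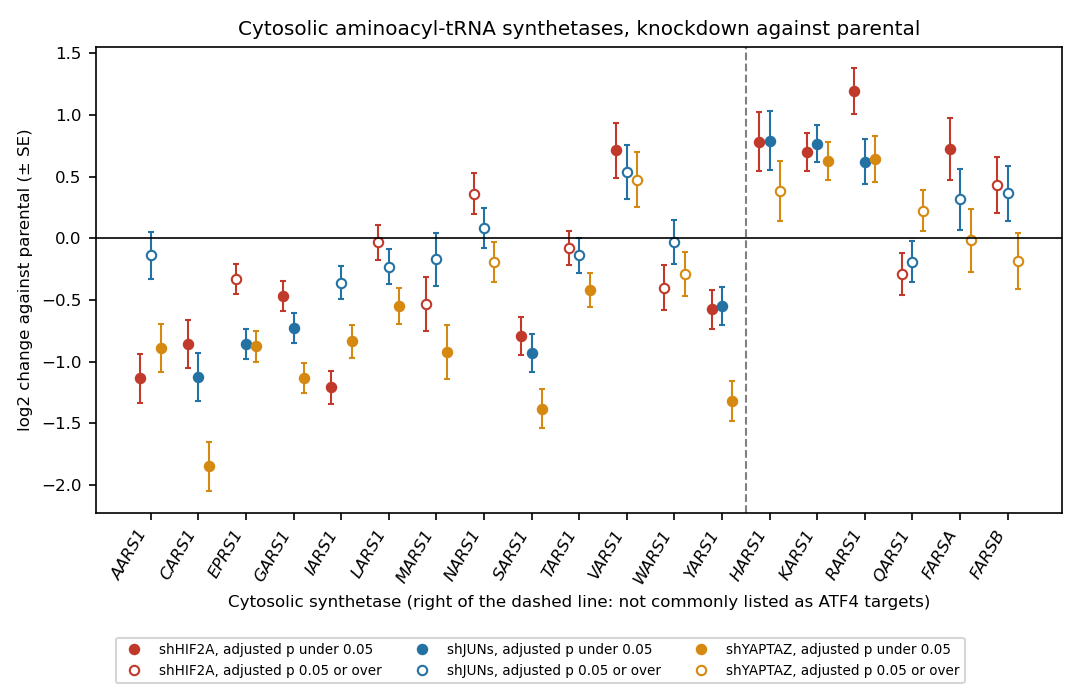
Change against parental (log2, vertical axis, with SE) of the 19 cytosolic synthetases in the 3 knockdowns; filled points have an adjusted p under 0.05. Left of the dashed line most filled points lie below 0, with CARS1 in shYAPTAZ the lowest at -1.85, and right of it every filled point lies above 0, with RARS1 in shHIF2A the highest at 1.19.

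The knockdowns were also compared with each other. Between shJUNs and shHIF2A 1 of the 42 genes was lower in shJUNs and 4 were higher, where 3.17% and 4.36% of all genes tested were. SLC7A5 was higher in shJUNs by 1.57-fold (log2 0.65 ± 0.14 SE, adjusted p = 0.00483) and PSAT1 by 1.93-fold (log2 0.95 ± 0.18 SE, adjusted p = 0.00192). The 2 synthetases AARS1 and IARS1 were higher in shJUNs by 1.9996-fold (log2 1.000 ± 0.20 SE, adjusted p = 0.00232) and 1.8004-fold (log2 0.85 ± 0.13 SE, adjusted p = 2.64e-04), whereas EPRS1 was lower by 1.44-fold (log2 -0.52 ± 0.12 SE, adjusted p = 0.00954), the opposite direction. The EPRS1 call ended without shHIF2A replicate 2 or shJUNs replicate 1 or 3 (adjusted p from 0.0518 to 0.07197). Against parental, chromosome 16 (SLC7A5 and AARS1) had median log2 changes of 0.34 in shJUNs and 0.04 in shHIF2A. Those of chromosome 9 (PSAT1 and IARS1) were 0.16 and 0.035, and those of chromosome 1 (EPRS1) -0.11 and 0.009. These shifts went in the direction of the 5 calls, and their part in them was not tested. The count of genes higher in shJUNs was 7 without parental replicate 1 or shYAPTAZ replicate 1 or 3. ATF4 itself missed the threshold between them (log2 0.46 ± 0.15 SE, adjusted p = 0.0592) and was called higher in shJUNs without parental replicate 1, shHIF2A replicate 3 or shYAPTAZ replicate 1 or 3 (adjusted p from 0.0234 to 0.0418), and with a filter at 10 CPM (0.0477), with DESeq2 (0.0286), under limma-voom (0.0354) and when the 6 libraries compared were fitted alone (0.0124).

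Between shYAPTAZ and shHIF2A 13 were lower in shYAPTAZ and 4 higher, against 8.72% and 9.71% of all genes. ATF4 was lower in shYAPTAZ by 1.66-fold (log2 -0.73 ± 0.15 SE, adjusted p = 0.00157), SLC7A5 by 2.23-fold (log2 -1.16 ± 0.14 SE, adjusted p = 4.34e-06) and SLC3A2 by 1.67-fold (log2 -0.74 ± 0.17 SE, adjusted p = 0.00392). MTHFD2 was lower by 1.72-fold (log2 -0.78 ± 0.20 SE, adjusted p = 0.0105), with overlapping libraries, a call that ended without shHIF2A replicate 3 or shYAPTAZ replicate 2 (adjusted p 0.0727 and 0.0587). Of the 13, 7 were listed synthetases, led by CARS1 at 1.99-fold (log2 -0.99 ± 0.20 SE, adjusted p = 0.00128), YARS1 at 1.67-fold (log2 -0.74 ± 0.16 SE, adjusted p = 0.00218) and GARS1 at 1.59-fold (log2 -0.67 ± 0.12 SE, adjusted p = 4.75e-04). The count of these synthetases was 4 without shHIF2A replicate 2, and that of all 13 was 8 without shHIF2A replicate 2 or shYAPTAZ replicate 2. The 4 genes higher in shYAPTAZ were TRIB3, PSAT1, SLC38A2 and QARS1. The TRIB3 difference was 1.58-fold (log2 0.66 ± 0.22 SE, adjusted p = 0.0364) and ended without shHIF2A replicate 1, 2 or 3 or shYAPTAZ replicate 1 or 2 (adjusted p from 0.0732 to 0.165), and under limma-voom (0.128) and when the 6 libraries compared were fitted alone (0.0646). For PSAT1 it was 1.45-fold (log2 0.54 ± 0.18 SE, adjusted p = 0.0437), with overlapping libraries, and ended without parental replicate 2, shHIF2A replicate 1 or 2, shJUNs replicate 1, 2 or 3 or shYAPTAZ replicate 2 or 3 (adjusted p from 0.0546 to 0.218), and under limma-voom (0.0516) and when the 6 libraries compared were fitted alone (0.107). ATF4 mRNA and TRIB3 mRNA thus had opposite directions between these 2 knockdowns. For SLC38A2 the difference was 1.48-fold (log2 0.57 ± 0.19 SE, adjusted p = 0.04103) and ended without shHIF2A replicate 1, 2 or 3, shJUNs replicate 2 or 3 or shYAPTAZ replicate 1 or 3 (adjusted p from 0.0519 to 0.115), and under limma-voom (0.0562). For QARS1 it was 1.43-fold (log2 0.51 ± 0.17 SE, adjusted p = 0.0363) and ended without shHIF2A replicate 1, 2 or 3 or shYAPTAZ replicate 1 or 2 (adjusted p from 0.0609 to 0.126), and with no filter on low counts (0.0574) and when the 6 libraries compared were fitted alone (0.0604). RARS1 and FARSA, higher in shHIF2A than in parental cells, were lower in shYAPTAZ than in shHIF2A by 1.46-fold (log2 -0.55 ± 0.18 SE, adjusted p = 0.0391) and 1.67-fold (log2 -0.74 ± 0.25 SE, adjusted p = 0.0423). For RARS1, whose libraries overlapped, this ended without parental replicate 2, shHIF2A replicate 2 or 3, shJUNs replicate 1, 2 or 3 or shYAPTAZ replicate 1 or 2 (adjusted p from 0.0519 to 0.178), and under limma-voom (0.0532) and when the 6 libraries compared were fitted alone (0.0828). For FARSA it ended without parental replicate 2, shHIF2A replicate 2 or 3, shJUNs replicate 1, 2 or 3 or shYAPTAZ replicate 1 or 2 (adjusted p from 0.0527 to 0.139), and with no filter on low counts (0.0767), under limma-voom (0.0597) and when the 6 libraries compared were fitted alone (0.0849).

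Between shYAPTAZ and shJUNs 13 were lower in shYAPTAZ, against 8.27% of all genes, and 0 were higher by edgeR, DESeq2 or limma-voom, against 7.87%; at an unadjusted p under 0.05 edgeR gave 2 higher, and without parental replicate 1 or shYAPTAZ replicate 3 it called 1. SLC7A5 was lower by 3.498-fold (log2 -1.81 ± 0.14 SE, adjusted p = 7.50e-09), SLC3A2 by 2.402-fold (log2 -1.26 ± 0.17 SE, adjusted p = 1.78e-05) and ATF4 by 2.28-fold (log2 -1.19 ± 0.15 SE, adjusted p = 7.65e-06). Among the synthetases YARS1 was lower by 1.71-fold (log2 -0.77 ± 0.16 SE, adjusted p = 0.00171) and AARS1 by 1.69-fold (log2 -0.75 ± 0.19 SE, adjusted p = 0.00984), and the AARS1 call ended without shYAPTAZ replicate 2 (adjusted p = 0.0607). SHMT2, MTHFD2 and PYCR1 were lower by 1.45-fold, 1.61-fold and 1.42-fold (adjusted p 0.0244, 0.0249 and 0.0255). Against parental, chromosome 12 (SHMT2) had median log2 changes of 0.29 in shJUNs and -0.02 in shYAPTAZ. Those of chromosome 17 (PYCR1) were 0.07 and -0.15, and those of chromosome 2 (MTHFD2) -0.052 and -0.055. The part of these shifts in the 3 calls was not tested. The SHMT2 call ended without shJUNs replicate 1, 2 or 3 or shYAPTAZ replicate 1 (adjusted p from 0.0518 to 0.114), the MTHFD2 call without shJUNs replicate 2 or 3 or shYAPTAZ replicate 1 or 2 (adjusted p from 0.0669 to 0.104), and the PYCR1 call without shJUNs replicate 2 or shYAPTAZ replicate 1 (adjusted p 0.136 and 0.0647). The count of listed synthetases, 6, was 2 without shJUNs replicate 2 and 3 without shYAPTAZ replicate 2. The count of all 13 was 5 without shJUNs replicate 2, 7 without shYAPTAZ replicate 1, and 8 without shJUNs replicate 3 or shYAPTAZ replicate 2. TRIB3, DDIT3, CEBPG and PPP1R15A were not called between these 2 knockdowns (adjusted p 0.0667, 0.787, 0.924 and 0.707). TRIB3 was called higher in shYAPTAZ without parental replicate 1 or shYAPTAZ replicate 3 (adjusted p 0.0273 and 0.0204). It was also called with no filter on low counts (0.0329) and with a replicate block (0.0149).

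Further ATF4 and integrated stress response targets, outside the 46, were also lower more often than higher. These targets were listed with earlier results of these data known, so their counts are a description and no separate support. Of 20 on a list, 19 were tested: 12 were lower and 1 higher in shHIF2A (median log2 change -0.63), 10 lower and 1 higher in shJUNs (-0.48), and 13 lower and 2 higher in shYAPTAZ (-1.01). Of all genes tested, 8.80%, 8.93% and 12.3% were lower and 9.84%, 10.3% and 13.0% higher in the same order. DDIT4 (REDD1), an inhibitor of mTORC1 that hypoxia also induces, stood at 2149.9, 1578 and 1401 CPM in the parental libraries and 156, 142 and 114 CPM in shHIF2A. DDIT4 gave 183, 204 and 139 CPM in shJUNs and 340.2, 253 and 132 CPM in shYAPTAZ. Its parental libraries were several times above all the others. DDIT4 was lower in shHIF2A by 12.4-fold (log2 -3.63 ± 0.33 SE, adjusted p = 1.80e-05), in shJUNs by 10.005-fold (log2 -3.32 ± 0.32 SE, adjusted p = 2.76e-05) and in shYAPTAZ by 7.05-fold (log2 -2.82 ± 0.32 SE, adjusted p = 5.60e-05). SLC38A1, a further glutamine carrier, was lower by 2.72-fold, 2.13-fold and 2.23-fold in the same order (adjusted p 3.55e-07, 9.23e-06 and 3.02e-06). CTH, which makes cysteine, was lower in shJUNs by 5.97-fold (log2 -2.58 ± 0.35 SE, adjusted p = 1.38e-05), and GPT2, the mitochondrial alanine transaminase, in shHIF2A by 3.301-fold (log2 -1.72 ± 0.23 SE, adjusted p = 1.56e-05). XPOT, which exports tRNAs from the nucleus, was lower in shYAPTAZ by 2.59-fold (log2 -1.37 ± 0.18 SE, adjusted p = 6.37e-06), and SQSTM1 (p62), an autophagy receptor, by 2.14-fold (log2 -1.10 ± 0.11 SE, adjusted p = 1.11e-07). Each gene is named where its p was among the smallest, so its fall need not be limited to that knockdown. CTH had 674 counts in the parental group and 148, 150 and 114 in shHIF2A, shJUNs and shYAPTAZ. GPT2 had 832 and then 241, 572 and 271, all without scaling for depth.

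The few list genes that rose are named after their values were seen. MAP1LC3B, an autophagy gene, was higher in shHIF2A by 1.43-fold (log2 0.51 ± 0.16 SE, adjusted p = 0.0265), a call that ended without parental replicate 1 or 3 or shHIF2A replicate 1 or 2 (adjusted p from 0.0561 to 0.148). STC2, a secreted glycoprotein, was higher in shJUNs by 2.48-fold (log2 1.31 ± 0.36 SE, adjusted p = 0.0163) and in shYAPTAZ by 2.14-fold (log2 1.10 ± 0.36 SE, adjusted p = 0.0328), where its libraries overlapped the parental ones. Those calls ended in shJUNs without parental replicate 2 or 3 or shJUNs replicate 3 (adjusted p from 0.0598 to 0.0757), and in shYAPTAZ without parental replicate 2 or 3 or shYAPTAZ replicate 3 (adjusted p from 0.102 to 0.338), and under limma-voom (0.0599) and when the 6 libraries compared were fitted alone (0.0623). ALDH1L2, a mitochondrial folate enzyme, had 0 counts in the parental group and 60 in shYAPTAZ, which was at least 21.0-fold higher when the parental group is set at 3 counts in all. That bound leaves out the spread between the shYAPTAZ libraries. With 3 counts in shHIF2A and 0 in shJUNs, ALDH1L2 passed the filter on low counts through shYAPTAZ alone.

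Genes that carry the signal to ATF4 were counted as well. Of 20 for eIF2, its kinases, exchange factor and phosphatases outside the 46, 2 were lower in shHIF2A, 4 were lower and 1 higher in shJUNs, and 3 were lower and 1 higher in shYAPTAZ, where 8.80%, 8.93% and 12.3% of all genes were lower and 9.84%, 10.3% and 13.0% higher. These counts are read as no result about the group. PPP1CB, a catalytic subunit of protein phosphatase 1, was lower in shHIF2A by 2.9997-fold (log2 -1.58 ± 0.14 SE, adjusted p = 4.42e-08) and in shJUNs by 1.47-fold (log2 -0.56 ± 0.13 SE, adjusted p = 0.00495), and its relative PPP1CC was lower in shHIF2A by 1.73-fold (log2 -0.79 ± 0.17 SE, adjusted p = 0.00206). Of the eIF2 subunits, EIF2S1 (alpha) was higher in shJUNs by 1.75-fold (log2 0.81 ± 0.20 SE, adjusted p = 0.006097) and in shYAPTAZ by 2.02-fold (log2 1.01 ± 0.20 SE, adjusted p = 6.85e-04). EIF2S2 (beta) was lower in shYAPTAZ by 2.26-fold (log2 -1.17 ± 0.13 SE, adjusted p = 1.05e-06). EIF2A, an initiation factor outside the eIF2 complex, was lower in shJUNs by 1.93-fold (log2 -0.95 ± 0.20 SE, adjusted p = 0.00154), and EIF2AK2 (PKR), the kinase that responds to double-stranded RNA, was lower in shYAPTAZ by 1.44-fold (log2 -0.53 ± 0.18 SE, adjusted p = 0.0398), a call that ended without parental replicate 3, shHIF2A replicate 2, shJUNs replicate 1 or 3 or shYAPTAZ replicate 1 or 2 (adjusted p from 0.05002 to 0.216), and with no filter on low counts (0.0638) and when the 6 libraries compared were fitted alone (0.105). EIF2S1 lies on chromosome 14, whose genes had median log2 changes of 0.39 in shJUNs and 0.89 in shYAPTAZ, the direction of its rise. The part of that shift in the EIF2S1 calls was not tested. Its shJUNs call ended without shJUNs replicate 3 (adjusted p = 0.0518).

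Synthetases of mitochondria, which are encoded by separate genes, were counted too. Of 16 tested, 4 were higher in shHIF2A (median log2 change 0.32), 1 was lower and 2 were higher in shJUNs (0.00), and 2 were lower and 3 higher in shYAPTAZ (0.20). Against the shares of all genes (8.80%, 8.93% and 12.3% lower, 9.84%, 10.3% and 13.0% higher), the counts in shJUNs and the lower ones in shYAPTAZ are near the background. The 4 of 16 higher in shHIF2A, with 0 lower, are a larger share than that of all genes. HARS2, which sits head to head with HARS1 and overlaps it by 108 bases, was higher in shHIF2A by 2.31-fold (log2 1.21 ± 0.31 SE, adjusted p = 0.00845), and IARS2 was lower in shJUNs by 1.52-fold (log2 -0.60 ± 0.16 SE, adjusted p = 0.00948) and in shYAPTAZ by 1.498-fold (log2 -0.58 ± 0.16 SE, adjusted p = 0.00923). YARS2 was higher in shHIF2A (2.14-fold, adjusted p = 0.0199) and in shYAPTAZ (2.12-fold, adjusted p = 0.0155, with overlapping libraries), and LARS2 was higher in shHIF2A (2.34-fold, adjusted p = 0.0272) and shJUNs (2.22-fold, adjusted p = 0.0347). MARS2 was higher in shJUNs (5.86-fold, adjusted p = 0.0225), and CARS2, on chromosome 13, was lower in shYAPTAZ (1.81-fold, adjusted p = 0.0135). For YARS2 the calls ended in shHIF2A without parental replicate 1 or 2 or shHIF2A replicate 2 or 3 (adjusted p from 0.0569 to 0.0856), and in shYAPTAZ without parental replicate 1 or 2 or shYAPTAZ replicate 2 or 3 (adjusted p from 0.0562 to 0.1099). For LARS2 they ended in shHIF2A without parental replicate 1 or 3 or shHIF2A replicate 1 or 2 (adjusted p from 0.0735 to 0.117), and when the 6 libraries compared were fitted alone (0.0504), and in shJUNs without parental replicate 1 or 3 or shJUNs replicate 1, 2 or 3 (adjusted p from 0.0746 to 0.139), and with no filter on low counts (0.0621). The MARS2 call ended without parental replicate 1 or 3 or shJUNs replicate 1 or 2 (adjusted p from 0.0579 to 0.103), and the CARS2 call without parental replicate 2 or shYAPTAZ replicate 2 (adjusted p 0.0919 and 0.0748), and when the 6 libraries compared were fitted alone (0.0502). The IARS2 calls ended in shJUNs without shJUNs replicate 2 or 3 (adjusted p 0.0684 and 0.0507), and in shYAPTAZ without shYAPTAZ replicate 2 (adjusted p = 0.0598). Of 4 further genes listed for the multi-synthetase complex, 2 were higher and 1 was lower in shHIF2A. In shJUNs 1 was lower and 0 were higher, and in shYAPTAZ 0 were called. So few genes give no result about the group beside the shares of all genes. The scaffold genes AIMP1 and AIMP2 were higher in shHIF2A by 1.502-fold (log2 0.59 ± 0.18 SE, adjusted p = 0.0233) and 2.15-fold (log2 1.10 ± 0.30 SE, adjusted p = 0.0151). These calls ended for AIMP1 without parental replicate 1 or 3 or shHIF2A replicate 2 or 3 (adjusted p from 0.0575 to 0.109) and for AIMP2 without parental replicate 1 or shHIF2A replicate 3 (adjusted p 0.0504 and 0.0543).

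The ATF6 and XBP1 arm of the unfolded protein response, which answers stress of the endoplasmic reticulum apart from ATF4, was called higher where it was called in shYAPTAZ. Of 17 genes, 7 were higher in shYAPTAZ and the other 10 were not called, while 3 were lower and 1 higher in shHIF2A and 1 was lower and 2 higher in shJUNs. Of all genes 13.0% were higher in shYAPTAZ, 8.80% were lower and 9.84% higher in shHIF2A, and 8.93% and 10.3% in shJUNs, where the counts of this arm are near the background. In shYAPTAZ the secreted factor MANF was higher by 1.98-fold (log2 0.99 ± 0.17 SE, adjusted p = 1.21e-04), CRELD2 by 2.99-fold (log2 1.58 ± 0.27 SE, adjusted p = 1.75e-04) and the chaperone CALR by 1.48-fold (log2 0.57 ± 0.11 SE, adjusted p = 7.33e-04). MANF stood at 77.6, 79.6 and 89.1 CPM in the parental libraries and at 147, 166 and 174 CPM in shYAPTAZ, with a clear gap between them. In shHIF2A the disulfide isomerase PDIA6 was lower by 1.51-fold (log2 -0.60 ± 0.13 SE, adjusted p = 0.00255), and SEL1L, of the degradation machinery, was lower there by 1.66-fold (log2 -0.73 ± 0.19 SE, adjusted p = 0.00913) and higher in shYAPTAZ by 1.703-fold (log2 0.77 ± 0.18 SE, adjusted p = 0.00347). HSP90B1 (GRP94), a chaperone, was lower in shHIF2A by 1.39-fold (log2 -0.47 ± 0.13 SE, adjusted p = 0.01395), a call that ended without parental replicate 1 (adjusted p = 0.0538). In shJUNs CRELD2 was higher by 2.28-fold (log2 1.19 ± 0.27 SE, adjusted p = 0.00328) and SDF2L1, a chaperone cofactor, by 2.07-fold (log2 1.05 ± 0.28 SE, adjusted p = 0.00949), and PDIA6 was lower by 1.34-fold (log2 -0.43 ± 0.13 SE, adjusted p = 0.0235). The SDF2L1 call ended without parental replicate 1 or shJUNs replicate 3 (adjusted p 0.0534 and 0.0508), and the PDIA6 call in shJUNs without parental replicate 1 or 3 or shJUNs replicate 1, 2 or 3 (adjusted p from 0.0527 to 0.0907). SEL1L also lies on chromosome 14, and the part of that chromosome's shift in the result was not tested. CRELD2 and SDF2L1 lie on chromosome 22, whose genes had median log2 changes of 0.31 in shJUNs and 0.27 in shYAPTAZ. That shift went in the direction of their rises, and its part in them was not tested.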

How the data were processed

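The authors deposited 1 table of raw counts per gene for the 12 libraries. Per the submitters' processing notes, reads were handled with Trim Galore and STAR on hg38; versions, the counting tool, its use of strand and its use of molecular identifiers were not given in the sources used here. The table had 62705 lines, of which 3 were fragments of 1 broken gene and were dropped, leaving 62702 genes. Tests on the deposited counts used edgeR 4.0.16 (R 4.3.3): filterByExpr by group, TMM scaling, a robust quasi-likelihood fit with 1 mean per group over all 12 libraries, and Benjamini-Hochberg adjustment over 12301 genes at 0.05. Tested on simulated data, the fit returned sizes of change near those put in and called most of the largest changes but few of the smallest, so a gene not called may still differ. The common dispersion was 0.0628. CPM values are counts over the library total, without TMM.

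The genes and pathway lists were chosen with earlier results of these data known. All 46 genes are accounted for; library values are given at least for the called genes of each role with the largest change, up to 6 per comparison, and from each list up to 3 called genes with the smallest p per comparison are named, except that 1 gene of a list is not reported here. Alternatives were RLE scaling, no filter beyond 1 count, a filter at 10 CPM, DESeq2 1.42.0, limma-voom (limma 3.58.1), fits of the 6 libraries compared, a replicate block, and leaving out each library. Running them on pairs of knockdowns and on the list genes was chosen after seeing the data. Promoter sequences are RefSeq's (GRCh38.p14). They were missing for 8 genes (NUPR1, PSPH, SHMT2, PYCR1, SLC7A11, LARS1, VARS1 and YARS1). For CEBPB, EIF2AK4 and SARS1 the end of the window was not found in a GENCODE transcript of the gene.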

Additional observations from a re-analysis of the deposited data

How the results depend on the processing

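Leaving out 1 library in turn gave 21 to 26 lower and 3 to 6 higher genes in shHIF2A, 15 to 21 lower and 1 to 3 higher in shJUNs, and 26 to 27 lower and 1 to 3 higher in shYAPTAZ, of the members tested. Between shJUNs and shHIF2A it gave 0 to 3 lower and 4 to 7 higher, between shYAPTAZ and shHIF2A 8 to 17 lower and 0 to 5 higher, and between shYAPTAZ and shJUNs 5 to 16 lower and 0 to 1 higher. With other settings, the 1 gene lower in shJUNs than in shHIF2A became 3 with no filter, 2 with DESeq2, 3 in a 6-library fit and 3 with a replicate block. The 4 higher became 7 with a filter at 10 CPM, 7 with DESeq2, 7 with limma-voom, 9 in a 6-library fit and 8 with a replicate block. Between shYAPTAZ and shHIF2A the 13 lower became 8 in a 6-library fit, and the 4 higher became 1 with limma-voom and 1 in a 6-library fit. Between shYAPTAZ and shJUNs the 0 higher became 1 with no filter and 1 with a replicate block. The cause was not tested. Of the 126 comparisons of a member with parental, no called one changed sign under these settings; 78 fits without 1 library lost a call and 13 gained one. Among all genes, the 1211 higher in shHIF2A were 772 without parental replicate 1, and the 1099 lower and 1271 higher in shJUNs were 672 and 846 without shJUNs replicate 3. Between shJUNs and shHIF2A the 390 lower and 536 higher ran from 165 to 505 and from 306 to 694 without 1 library, and were 742 and 879 in a 6-library fit. The 1073 lower in shYAPTAZ than in shHIF2A were 710 in a 6-library fit, and the 968 higher in shYAPTAZ than in shJUNs were at least 594 without 1 library. PHGDH and SLC6A9 had too few counts to test. Libraries share only a replicate number: 12 of 18 same-numbered pairs correlated above 0.1 (-0.0067 to 0.531) and 10 of 12 libraries correlated best with their own number. The count of members called did not otherwise move by over 1.5 times under the block, which added 5 calls against parental, among them MARS1 (0.0318) and EPRS1 (0.0409) in shHIF2A.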
